A study of Homo sapiens with 14 samples.

Results

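Edit clusters in the exons of long noncoding RNAs (lncRNAs) were compared between libraries made with an antibody against RBFOX2 and libraries made without it. A cluster, a short stretch of RNA in which C-to-U edits lie close together, was counted when its midpoint lay in an exon of a lncRNA gene on its own strand and in no same-strand exon of a protein-coding gene. Of 208672 clusters in 14 libraries, 6642 met this rule, and they fell in 1871 of the 18866 lncRNA genes of the annotation. A further 296 clusters in MALAT1, NEAT1 and DUXAP8 were left out. For comparison, 137176 clusters lay in exons of protein-coding genes and 62141 in introns.

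The cells were HEK293T (also written HEK293XT), an immortalized human embryonic kidney line, fixed in methanol on slides. In RBFOX2 libraries the antibody recruited a fusion of the cytidine deaminase APOBEC1 with a nanobody, Enzyme-only libraries received the fusion without the antibody, and Buffer-only libraries received neither. RNA inputs were 1 ng and 100 pg of total RNA, and each input had 3 RBFOX2, 3 Buffer-only and 1 Enzyme-only library. The replicates were slides of the same line and are described as technical by the study, so p-values measure only technical spread. With 1 library per input, Enzyme-only was left out of every test and its values carry no error between libraries. A library held 9982 to 24715 clusters of any kind at 1 ng and 8864 to 13614 at 100 pg. Only edit calls were analysed, so the identity of the line was taken from the labels and not checked against marker genes.

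LncRNAs are transcripts with no long reading frame. Some act in the nucleus, such as XIST, which coats an X chromosome and silences it, and others in the cytoplasm, such as NORAD, which binds Pumilio proteins, or serve mainly as hosts from which small nucleolar RNAs or microRNAs are cut. RBFOX2, a mostly nuclear regulator of splicing, binds the RNA hexamer UGCAUG. APOBEC1 prefers a cytosine that follows A or U, so the base before an edit and the presence of UGCAUG are readouts that the choice of clusters did not use.

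Most lncRNA loci were called in 1 library. When overlapping clusters of the 7 libraries of an input were merged to loci, 2696 of 3143 loci (85.8%) at 1 ng and 2216 of 2432 (91.1%) at 100 pg came from a single library. At 1 ng, 93 loci were called in at least 2 RBFOX2 libraries and in no Buffer-only library, and 13 of these lay within 50 nt of UGCAUG. The opposite pattern, at least 2 Buffer-only libraries and no RBFOX2 library, was found for 34 loci, 1 of them near UGCAUG. At 100 pg both patterns had 27 loci, with 1 near UGCAUG in each. Of all loci, 101 (3.21%) at 1 ng and 83 (3.41%) at 100 pg were near UGCAUG. RBFOX2 libraries held more lncRNA clusters than Buffer-only libraries (means of 656 and 428 at 1 ng). The part of this difference in the counts of loci was not tested.

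The sequences around 5 of the RBFOX2 loci with UGCAUG at 1 ng, none of them called in the Enzyme-only library of that input, are shown because they place an edited cytosine beside the motif. Each is a stretch of hg38 read 5′ to 3′ on the strand of the lncRNA, as DNA, with the motif TGCATG and 1 edited C in capitals. Each printed C was called in 1 RBFOX2 library and in no Buffer-only library of this input, and other RBFOX2 libraries carried edits at other cytosines of the same locus. The edited reads were 1 of 32 in ZNF503-AS2, 1 of 23 in AMZ2P1, 3 of 15 in MMP25-AS1, 3 of 20 in SNHG20 and 1 of 5 in LINC00641. At 100 pg the same C was called in MMP25-AS1 in 1 RBFOX2 library (3 of 13 reads) and in SNHG20 in the Enzyme-only library (6 of 48 reads).
ZNF503-AS2 (chr10:75408563-75408592, plus): atgaatcgctCccTGCATGcaaatatcatt
AMZ2P1 (chr17:64968161-64968190, minus): gactactTGCATGttatgctttCatttggg
MMP25-AS1 (chr16:3054087-3054116, minus): catacctgcctCtgTGCATGcatctgtcag
SNHG20 (chr17:77094848-77094877, plus): attctcctcTGCATGcttgtCtttagagga
LINC00641 (chr14:21200391-21200420, minus): caactcatCtgtattgtTGCATGttgtagt
The edited C lay 3 nt upstream of the motif in ZNF503-AS2 and MMP25-AS1 and 9 nt upstream in LINC00641. It lay 6 nt downstream in SNHG20 and 10 nt downstream in AMZ2P1. These loci were picked for a UGCAUG nearby and no Buffer-only call. In each of them the C printed was the edited C nearest the motif, so the short distances follow from this choice. In SNHG3, a locus of the same kind that is not printed, the C called in 2 RBFOX2 libraries lay 53 nt upstream.

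Clusters in lncRNA exons were more numerous in RBFOX2 than in Buffer-only libraries, by a smaller factor than clusters in the exons of protein-coding genes, and the Enzyme-only libraries held about as many as RBFOX2 libraries. Among clusters with scores of at least 0.99 from FLARE, the cluster caller of the study, the difference from Buffer-only turned around at both inputs. At 1 ng the RBFOX2 libraries held 662, 657 and 649 lncRNA clusters and the Buffer-only libraries 406, 419 and 459. The groups did not overlap, and the Enzyme-only library, with 632, lay close to the RBFOX2 libraries. The means of 656 ± 6.56 and 428 ± 27.6 (SD, n = 3 each) stood in a ratio of 1.53 (exact two-sided permutation test, p = 0.1, adjusted p = 0.14 over 14 tests). This p is the smallest that 3 libraries against 3 allow.

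From 100 pg of RNA the 3 RBFOX2 libraries held 397, 449 and 398 clusters, the 3 Buffer-only libraries 394, 353 and 329, and the Enzyme-only library 438. The lowest RBFOX2 library was 3 clusters above the highest Buffer-only library, and the means of 415 ± 29.7 and 359 ± 32.9 stood in a ratio of 1.16 (exact permutation p = 0.1, adjusted p = 0.14). Without XIST the means were 399 and 352 and the groups overlapped (exact permutation p = 0.3). Clusters in protein-coding exons numbered 16891 ± 296 with RBFOX2 and 7100 ± 238 with Buffer-only at 1 ng, a ratio of 2.38, and 8678 ± 41.6 against 5561 ± 272 at 100 pg, a ratio of 1.56.

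The share of exonic clusters that lay in lncRNAs was accordingly lower in every RBFOX2 library than in any Buffer-only library of the same input. At 1 ng it was 3.84%, 3.70% and 3.68% in the RBFOX2 libraries and 5.61%, 5.43% and 6.02% in the Buffer-only libraries. At 100 pg it was 4.39%, 4.89% and 4.39% against 6.41%, 5.85% and 5.90%. Both differences gave an exact permutation p of 0.1 (adjusted p = 0.14). The Enzyme-only libraries had 4.17% (95% Wilson interval 3.86 to 4.50, counting error only) and 5.22% (4.76 to 5.72), between the groups at both inputs.

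**Figure D1:**
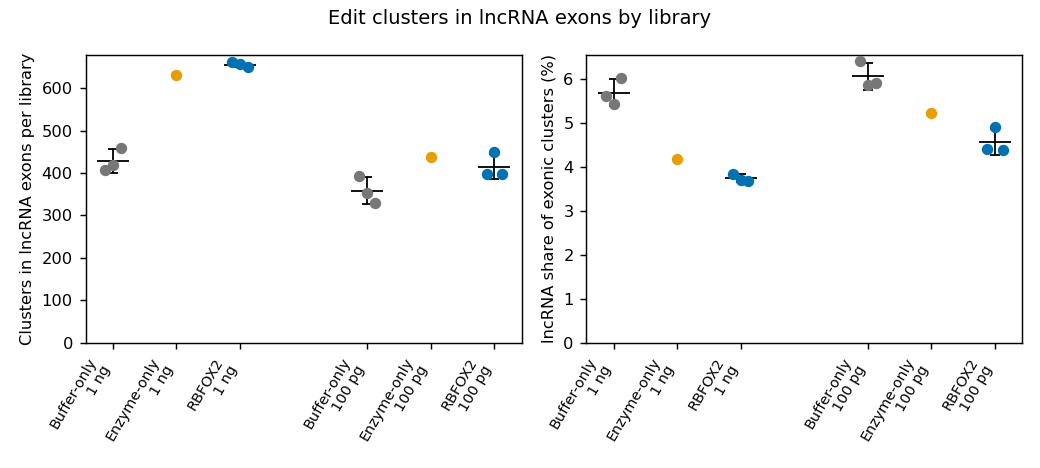
Clusters in lncRNA exons per library (left, number of clusters) and the lncRNA share of exonic clusters (right, percent), for each group and input. Points are libraries, and bars give the mean and SD of 3 libraries. At 1 ng the RBFOX2 points lie at 649 to 662 clusters and the Buffer-only points at 406 to 459, while the share is 3.68 to 3.84% against 5.43 to 6.02%.

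The lncRNA sites carried the base preference of APOBEC1 in the RBFOX2 and Enzyme-only libraries. At 1 ng 66.8%, 67.8% and 65.5% of the edit sites in RBFOX2 clusters followed A or U, against 42.7%, 46.3% and 43.6% in Buffer-only clusters. The groups lay far apart, at 66.7 ± 1.15% and 44.2 ± 1.89% (exact permutation p = 0.1, adjusted p = 0.14), and the Enzyme-only value of 65.3% had a 95% Wilson interval, 61.8 to 68.7, that took in all 3 RBFOX2 values. The preceding base A made up most of the gap, since 35.6 ± 0.84% of RBFOX2 sites and 17.6 ± 0.92% of Buffer-only sites followed A. Sites after C made up 15.9% and 30.1%.

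With 100 pg the A-or-U share was 56.3%, 56.6% and 58.6% in RBFOX2 libraries, 45.9%, 48.8% and 48.7% in Buffer-only libraries and 58.0% (53.5 to 62.3) in the Enzyme-only library. The RBFOX2 libraries were again all above the Buffer-only libraries (57.2 ± 1.23% against 47.8 ± 1.67%, exact permutation p = 0.1, adjusted p = 0.14). For protein-coding exons this share was 79.2% with RBFOX2 beside 45.2% with Buffer-only for 1 ng, and 70.8% beside 44.3% for 100 pg. Within a library, the lncRNA share minus the coding share was −12.5 ± 1.21 percentage points with RBFOX2 and −0.98 ± 1.06 points with Buffer-only at 1 ng. At the lower input it was −13.6 ± 1.34 points with RBFOX2 and 3.50 ± 1.87 points with Buffer-only. The 2 gaps differed between the groups with an exact permutation p of 0.1 at each input (adjusted p = 0.3 over 6 tests).

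UGCAUG lay within 50 nt of the midpoint of 4.68%, 5.02% and 4.62% of the lncRNA clusters of the RBFOX2 libraries at 1 ng. In the Buffer-only libraries it did so for 1.72%, 1.67% and 2.61%, and in the Enzyme-only library for 1.90% (95% Wilson interval 1.09 to 3.29). The RBFOX2 libraries stood above all 4 others, and the means of 4.78 ± 0.22% and 2.00 ± 0.53% gave an exact permutation p of 0.1 (adjusted p = 0.14). Of all exon bases of the 1871 genes, 2.76% lie within 50 nt of this hexamer on the same strand. The 94 RBFOX2 clusters near UGCAUG at 1 ng were spread over 65 genes, the 26 Buffer-only clusters over 24 and the 12 Enzyme-only clusters over 12.

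At 100 pg 4.03%, 4.01% and 3.52% of RBFOX2 clusters and 3.81%, 2.27% and 2.43% of Buffer-only clusters were near UGCAUG, with 2.28% (1.24 to 4.15) in the Enzyme-only library. One Buffer-only library reached into the RBFOX2 range, and the means of 3.85 ± 0.29% and 2.84 ± 0.85% did not separate (exact permutation p = 0.2). In protein-coding exons the shares were 4.89 ± 0.14% against 2.33 ± 0.24% at 1 ng and 4.08 ± 0.13% against 2.56 ± 0.30% at 100 pg. The lncRNA share minus the coding share was −0.11 ± 0.29 points with RBFOX2 and −0.33 ± 0.63 points with Buffer-only at 1 ng (exact permutation p = 0.7).

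**Figure D2:**
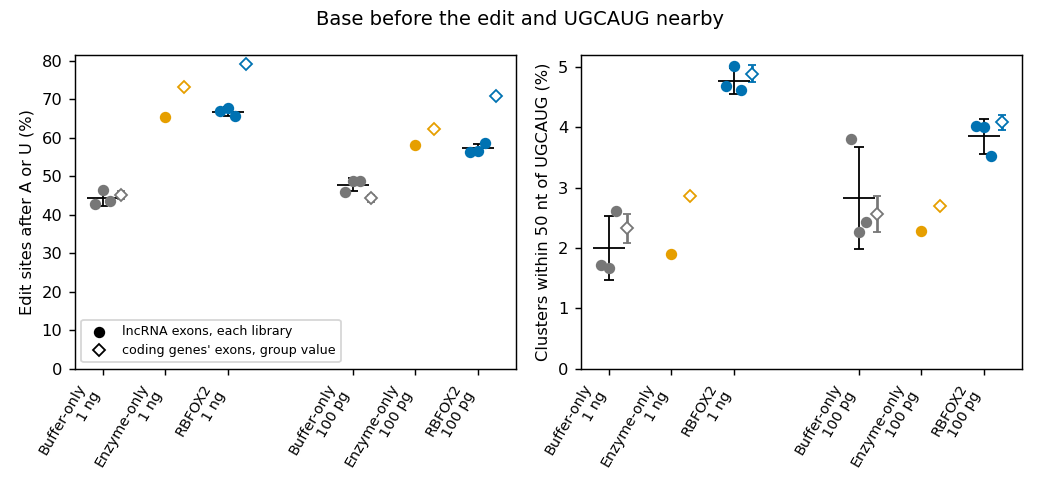
Percent of edit sites that follow A or U (left) and percent of clusters within 50 nt of UGCAUG (right). Filled points are lncRNA exons of single libraries with the mean and SD of 3, and open diamonds are the group values for exons of protein-coding genes with their SD. For the base before the edit the RBFOX2 diamonds (79.2 and 70.8%) lie above the lncRNA points (65.5 to 67.8% and 56.3 to 58.6%), while for UGCAUG at 1 ng they are close, 4.89% beside 4.62 to 5.02%.

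LncRNA genes that overlap an annotated pseudogene were 169 of the 1871. Near UGCAUG lay 6.27 ± 0.29% of their RBFOX2 clusters and 0.43 ± 0.75% of their Buffer-only clusters at 1 ng, while at 100 pg the spread between libraries was wide (3.71 ± 3.24% against 3.19 ± 1.04%). Reads from these genes and from their near-identical copies cannot be told apart with certainty.

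Many sites rested on few edited reads. Of the lncRNA sites, 59.1 ± 1.87% in RBFOX2 and 64.5 ± 0.83% in Buffer-only libraries rested on 1 edited read at 1 ng, and the median site had 15.5 and 17.7 reads. At 100 pg the shares on 1 edited read were 48.3 ± 1.58% and 64.5 ± 2.57%, and the median site had 19.3 and 21.2 reads. The summed edit fraction of the lncRNA sites was 6.68 ± 0.18% with RBFOX2 and 6.18 ± 0.35% with Buffer-only at 1 ng (exact permutation p = 0.1, adjusted p = 0.14), and 6.38 ± 1.39% and 5.70 ± 0.62% at 100 pg (p = 0.4 by the same exact test). Clusters with the highest FLARE scores, at least 0.99, made up 41.0 ± 1.80% of the RBFOX2 clusters and 67.4 ± 3.14% of the Buffer-only clusters at 1 ng. With those alone the RBFOX2 libraries no longer held more lncRNA clusters (269 against 289 at 1 ng and 182 against 227 at 100 pg).

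The clusters were on the strand of the lncRNA by the way they were called, within annotated genes, and 99.4 ± 0.16% of RBFOX2 clusters over these exons were sense at 1 ng. Single edit sites carry no such restriction. On the lncRNA strand lay 76.4%, 72.5% and 72.8% of the RBFOX2 sites over lncRNA exons at 1 ng, against 61.8%, 57.3% and 62.2% of the Buffer-only sites and 71.2% of the Enzyme-only sites. For 100 pg these shares were 68.6%, 65.2% and 64.9%, against 58.6%, 60.3% and 62.8%, and 66.2%. All RBFOX2 values were above all Buffer-only values at both inputs. The library kit is not described as strand-specific, and 1991 of the 6642 clusters lay opposite an exon of another gene, so reads of such partners cannot be told apart.

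The same lncRNA cluster was seldom found again. At 1 ng a median of 9.99% over pairs of libraries of the clusters of an RBFOX2 library overlapped a cluster of another RBFOX2 library, 10.8% overlapped one of the Enzyme-only library and 7.70% (6.19 to 8.94) one of a Buffer-only library. Buffer-only libraries shared 9.61% with each other. For protein-coding exons the same medians were 13.2% between RBFOX2 libraries, 9.10% with the Enzyme-only library, 3.50% with Buffer-only libraries and 5.59% between Buffer-only libraries. In the reverse direction, a median of 11.7% of the lncRNA clusters of a Buffer-only library overlapped one of an RBFOX2 library at 1 ng. For protein-coding exons this was 8.51%. The lncRNA medians at 100 pg lay between 5.20% and 6.16% for all these kinds of pair. A share depends on the number of clusters in the other library, which was higher for RBFOX2, and was not adjusted for it. Pairs share libraries, so these shares are a description.

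**Figure D3:**
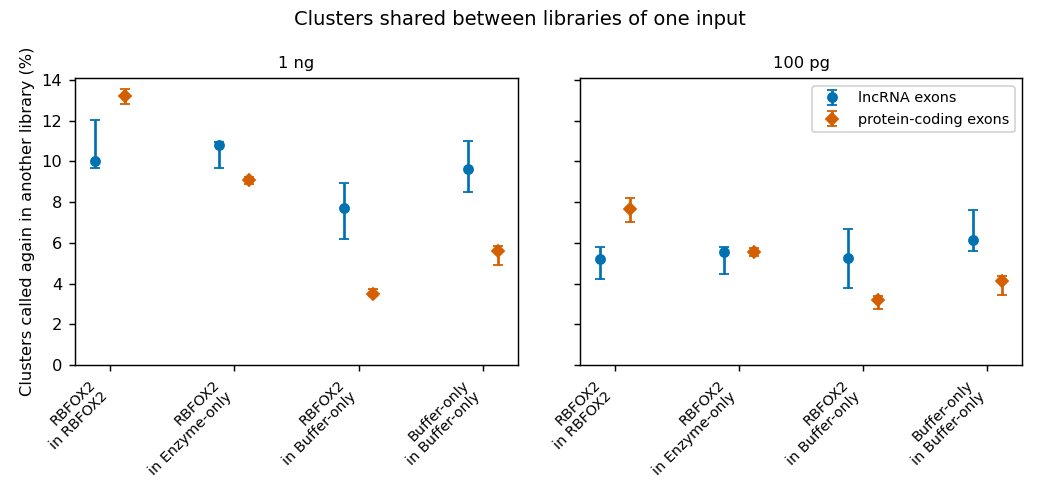
Percent of the clusters of a library that overlap a cluster of another library of the same input, by the kinds of library paired. Points are medians and bars the range over ordered pairs. Shares of Buffer-only clusters found in RBFOX2 libraries are not drawn, and no share is adjusted for the number of clusters in the other library. For lncRNA exons at 1 ng the pairings lie at 7.70 to 10.8%, while for protein-coding exons they run from 3.50% with Buffer-only to 13.2% between RBFOX2 libraries.

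Gene by gene, no lncRNA passed the test at either input. Clusters per gene were compared over all genes with edgeR's quasi-likelihood test, and of 131 lncRNA genes tested at 1 ng 0 were called at an adjusted p under 0.05, as were 0% of all 6234 genes tested in either direction. Before adjustment edgeR had 8 lncRNA genes higher and 3 lower with p under 0.05, and DESeq2 had 0 and 2. Of the 8 higher genes 7, all but NORAD, had 0 clusters in every Buffer-only library, so they could pass the filter on low counts only through the group in which they were high. At 100 pg 0 of 52 lncRNA genes were called, against 0.082% of all 3660 genes higher and 0% lower, with 2 lncRNA genes higher and 0 lower before adjustment in edgeR and 0 of either in DESeq2. The median log2 fold change of the lncRNA genes was −0.04 at 1 ng, beside 0.47 over all genes tested, and −0.13 beside 0.25 at 100 pg. Without scaling between libraries these medians were 0.74 beside 1.18 and 0.19 beside 0.56.

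The groups of libraries did not overlap for 17 of the 131 lncRNA genes (13%) with RBFOX2 above at 1 ng, where 25.2% of all genes had this pattern. The same 7 genes were among these 17 and, with 0 in the other group, had to differ once they passed the filter. This holds too for ENSG00000271976 and, at 100 pg, for MMP25-AS1, which follow. They did so with RBFOX2 below for 2 lncRNA genes (1.53%, beside 0.385% of all genes), CROCCP2 and ENSG00000271976. At 100 pg RBFOX2 was above for 2 of 52 (3.85%, beside 8.85%), XIST and MMP25-AS1, and below for 0 (beside 0.738%). A gene's number of clusters depends on the reads over it as well as on editing, and fewer cells with a transcript, fewer transcripts per cell and fewer edits cannot be told apart in these bulk libraries.

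The X inactivation centre held the most clusters. XIST (ENSG00000229807.13, chrX:73820649-73852723, minus) had 164 clusters over the 14 libraries, the highest total of a lncRNA gene here. At 1 ng its 3 RBFOX2 libraries held 9, 15 and 12 clusters and its Buffer-only libraries 9, 4 and 6. At 100 pg they held 19, 14 and 15 against 4, 7 and 10. The highest value of each input was in the Enzyme-only library, with 16 and 24. The RBFOX2 and Buffer-only groups touched at 1 ng (log2 fold change 0.12, adjusted p = 0.926 by edgeR, a sign that changes with the scaling) and did not overlap at 100 pg (0.85 ± 0.37 SE, adjusted p = 0.471).

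The larger numbers over XIST with RBFOX2 were mostly on its own strand. Edit sites on the XIST strand numbered 11, 17 and 13 with the antibody beside 9, 4 and 6 in the Buffer-only libraries at 1 ng, and 24, 16 and 18 against 4, 8 and 11 at 100 pg. The Enzyme-only libraries had 20 and 29. On the opposite strand over the same exons, RBFOX2 libraries had 6 to 8 sites and Buffer-only libraries 6 to 11 at 1 ng, and 10 to 11 against 5 to 10 at 100 pg. On average 11 ± 4.36 of the XIST-strand sites followed A or U with RBFOX2, beside 3.33 ± 0.58 with Buffer-only, at the higher input, and 15 ± 6.08 beside 4.67 ± 2.52 at the lower. XIST exons contain 4 copies of UGCAUG (0.158 per kb), and 1.60% of its exon bases lie within 50 nt of one. Of its RBFOX2 clusters 0 of 36 at 1 ng and 1 of 48 at 100 pg lay that near.

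**Figure D4:**
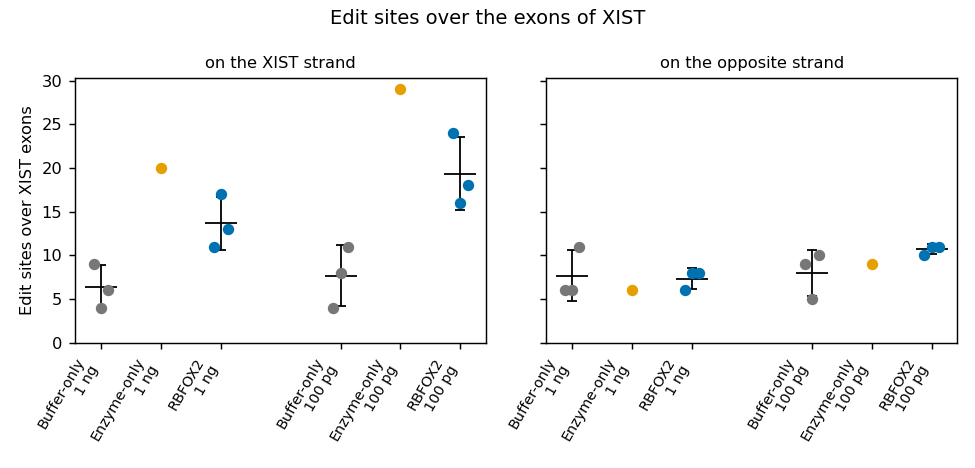
Number of edit sites over the exons of XIST on the strand of XIST (left) and on the opposite strand (right), for each group and input. Points are libraries, and bars give the mean and SD of 3. On the XIST strand the Enzyme-only points are the highest, 20 and 29, and RBFOX2 lies above Buffer-only, while on the opposite strand the groups lie between 5 and 11.

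A single XIST locus was called in all 3 RBFOX2 libraries and in no Buffer-only library at 100 pg, and it was the only lncRNA locus with this pattern at that input. It spans chrX:73824985-73825149, with 18, 9 and 19 edited reads in the RBFOX2 libraries, at sites of up to 480, 559 and 635 reads, and 9 edited reads at a site of 451 in the Enzyme-only library. Its sequence is shown because it is well covered and has no full UGCAUG nearby, with the cytosine edited in 1 RBFOX2 library (11 of 470 reads) in capitals. The printed stretch does begin with GCAUG, which falls within the wider RBFOX2 motif of the study, GCAYG (Y = C or U).
XIST (chrX:73824998-73825027, minus): gcatgatacaaatgtCaatgggctacatat

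TSIX, the antisense partner of XIST on the plus strand, had overlapping groups at both inputs. It held 3, 4 and 3 clusters in RBFOX2 and 2, 4 and 2 in Buffer-only libraries at 1 ng, and 6, 7 and 4 against 4, 2 and 5 at 100 pg. It had 3 positions called in all 14 libraries, at chrX:73823305, 73826253 and 73826254. At 73826253 the edited share of reads was 20.1 to 42.3% in Buffer-only and 16.7 to 31.3% in RBFOX2 libraries, over 194 to 290 reads. These positions lie inside the XIST gene on its other strand. CROCCP2, a pseudogene transcript, held 2 more such positions (chr1:16643076 and 16643092) and ENSG00000291113 another 1.

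JPX and FTX, neighbours of XIST that take part in its activation and lie on opposite strands of overlapping ground, had 80 and 64 clusters in all. JPX held 12, 11 and 9 clusters in RBFOX2 libraries, 3, 7 and 3 in Buffer-only libraries and 9 in the Enzyme-only library at 1 ng, so that the groups did not overlap (log2 fold change 0.49 ± 0.42, adjusted p = 0.681 by edgeR). Sites after A or U on its strand numbered 9 to 12 in RBFOX2 and 2 to 3 in Buffer-only libraries. At 100 pg JPX held 6, 5 and 3 against 4, 5 and 0. FTX, which hosts microRNAs, held 1, 9 and 7 against 4, 2 and 4 at 1 ng, with RBFOX2 libraries on both sides of the Buffer-only values.

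KCNQ1OT1, an imprinted antisense RNA that silences genes around it (chr11:2597308-2700003, minus), had 111 clusters. Its RBFOX2 libraries held 11, 18 and 8 at 1 ng and its Buffer-only libraries 5, 5 and 7, with 8 in the Enzyme-only library, the same as the lowest RBFOX2 value. Its values at 100 pg were 8, 7 and 8 against 6, 9 and 5. Its exons contain 28 copies of UGCAUG, and 2.95% of its exon bases lie within 50 nt of one. Of its 37 RBFOX2 clusters at 1 ng 0 lay that near, a number too small to compare with this share. Its clusters were scattered: of its 52 loci at 1 ng 44 were called in 1 library.

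FIRRE, a chromatin-bound RNA of the X chromosome, went the other way at 1 ng. The RBFOX2 libraries held 0, 0 and 1 clusters and the Buffer-only libraries 1, 2 and 2, with 2 in Enzyme-only (log2 fold change −2.64 ± 1.05, adjusted p = 0.326 by edgeR). At 100 pg they held 1 each against 0, 1 and 1. The 5 nuclear and imprinted transcripts with a cluster, of 9 listed, summed to 24, 29 and 19 clusters in RBFOX2 and 11, 18 and 13 in Buffer-only libraries at 1 ng, and to 15, 14 and 18 against 10, 17 and 7 at 100 pg.

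Cytoplasmic regulatory transcripts had sums that did not overlap between RBFOX2 and Buffer-only libraries at 1 ng. The 11 listed genes with a cluster, of 12, summed to 31, 24 and 24 clusters in RBFOX2 libraries, 9, 8 and 6 in Buffer-only libraries and 22 in the Enzyme-only library. The sums over all lncRNA genes did not overlap at this input either. Of the 7 listed genes tested, 0 were called, and 4 had groups that did not overlap with RBFOX2 above (25.2% of all genes did). The log2 fold change was above 0 for 4 of the 7 and below 0 for 3, with a median of 1.44, beside 0.47 over all genes. The sums at 100 pg were 12, 13 and 3 against 3, 6 and 5, with 12 in Enzyme-only, so that 1 RBFOX2 library fell to the lowest Buffer-only value.

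NORAD (ENSG00000260032.2, chr20:36045618-36051018, minus), which binds Pumilio proteins and guards genome stability, held 11, 4 and 4 clusters in RBFOX2 and 1, 1 and 0 in Buffer-only libraries at 1 ng. Its single Enzyme-only value was 2. Per kb of exon this was 1.17 against 0.123 clusters per library, the log2 fold change was 2.30 ± 0.87 and the adjusted p 0.326 (edgeR). Without RBFOX2 replicate 1, its highest library, the log2 fold change was 1.62. Edit sites on its strand ranged from 4 to 26 in RBFOX2 and from 0 to 1 in Buffer-only libraries, and those on the opposite strand from 0 to 2 and from 1 to 2. NORAD exons have 0 copies of UGCAUG. At 100 pg NORAD held 2, 1 and 0 clusters against 0, 1 and 1, with 4 in Enzyme-only.

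OIP5-AS1, a conserved RNA also called Cyrano, held 4, 8 and 3 clusters in RBFOX2 libraries against 2, 0 and 1 in Buffer-only libraries at 1 ng, with 5 in Enzyme-only (log2 fold change 1.44 ± 0.80, adjusted p = 0.520 by edgeR). EBLN3P, a transcript with an ancient viral insertion, held 7, 3 and 7 against 2, 0 and 1, with 3 in Enzyme-only (1.61 ± 0.78, adjusted p = 0.432). GABPB1-AS1 held 2, 3 and 2 against 0, 1 and 0, with 1 in Enzyme-only. In all 3 genes every RBFOX2 library was above every Buffer-only library, a pattern of 25.2% of all genes at this input. Leaving out single libraries moved the log2 fold change of OIP5-AS1 to between 0.85 without Buffer-only replicate 2 and 2.30 without Buffer-only replicate 1, and that of EBLN3P to between 1.03 and 2.47 without the same libraries. EBLN3P also had a locus (chr9:37087646-37087720) called at 1 ng in the 3 RBFOX2 libraries alone, with 4, 4 and 3 edited reads.

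**Figure D5:**
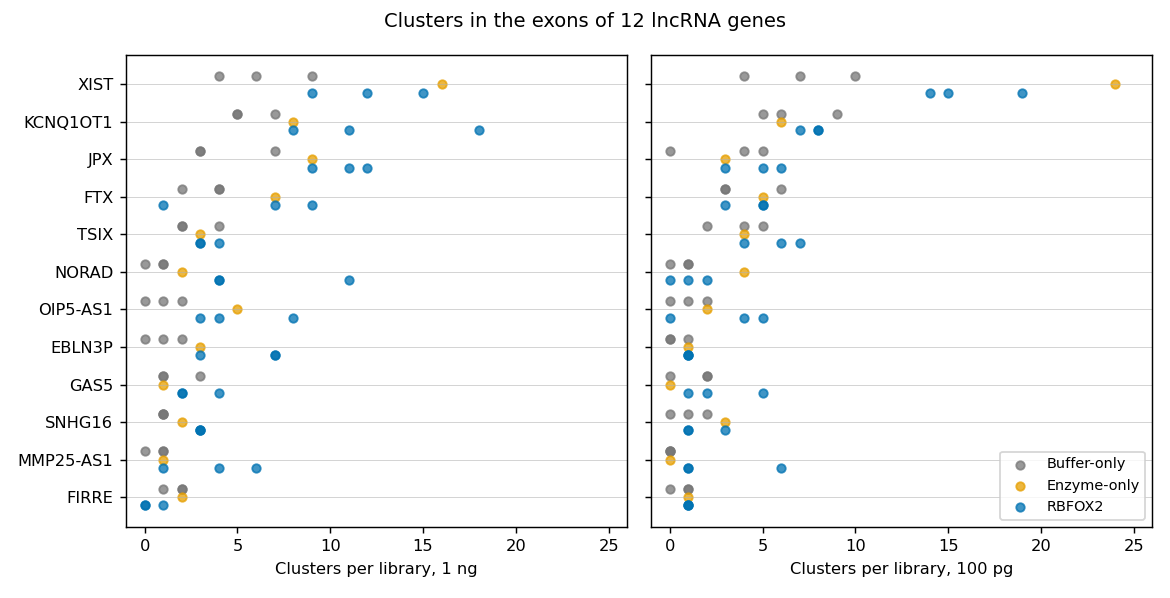
Clusters per library in the exons of 12 lncRNA genes at 1 ng (left) and 100 pg (right). Each point is a library, coloured by group, with Buffer-only above, Enzyme-only on and RBFOX2 below the line of its gene. At 1 ng NORAD shows 4 to 11 clusters with RBFOX2 and 0 to 1 with Buffer-only, XIST at 100 pg shows 14 to 19 and 4 to 10 with 24 in Enzyme-only, and FIRRE at 1 ng lies lower with RBFOX2.

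Hosts of small nucleolar RNAs held more clusters in sum in RBFOX2 than in Buffer-only libraries. The 20 genes with a cluster, of 22 listed, summed to 21, 20 and 28 clusters in RBFOX2 libraries and 7, 16 and 14 in Buffer-only libraries at 1 ng, and to 18, 20 and 14 against 11, 12 and 9 at 100 pg, without overlap at either input. The Enzyme-only sums were 19 and 16. The sums over all lncRNA genes did not overlap at either input either. The ratio of the means was 1.86 for the hosts and 1.53 for all lncRNA genes at 1 ng, and 1.625 and 1.16 at 100 pg. For the 9 hosts tested at 1 ng the median log2 fold change was 0.18, beside 0.47 over all genes, with 3 below 0. For the 4 tested at 100 pg it was 0.61, beside 0.25. None of the 9 and 4 genes tested was called, and 1 of the 9 had groups that did not overlap (beside 25.2% of all genes), SNHG16 with 3 clusters in each RBFOX2 library and 1 in each Buffer-only library. GAS5, which can bind steroid receptors, held 2, 4 and 2 against 1, 3 and 1 at 1 ng and 1, 5 and 2 against 2, 2 and 0 at 100 pg. SNHG20, whose motif site is printed above, held 2 clusters in the RBFOX2 libraries at 1 ng, both near UGCAUG, with 4 and 3 edited reads, 0 in the Buffer-only libraries and 2 in the Enzyme-only library.

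MicroRNA hosts and transcripts of the HOX loci had sums that overlapped between the groups at both inputs. The 10 microRNA hosts with a cluster, of 17 listed, summed to 10, 15 and 14 clusters with RBFOX2 and 11, 5 and 6 with Buffer-only at 1 ng, and to 5, 5 and 8 against 6, 7 and 8 at 100 pg. MIR17HG, host of the miR-17 family cluster, held 6, 3 and 2 against 1, 2 and 1 at 1 ng. The 15 HOX transcripts with a cluster, of 16, summed to 7, 9 and 8 against 3, 9 and 8 at 1 ng and to 3, 4 and 8 against 8, 4 and 5 at 100 pg. HOXA-AS3, antisense to HOXA genes, held 1, 1 and 3 against 0, 2 and 0 at 1 ng. Of the 3 and 2 genes of these lists tested at 1 ng, 0 were called.

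The antisense transcript MMP25-AS1 (ENSG00000261971.9, chr16:3037400-3059370, minus) holds many copies of the RBFOX hexamer. Its exons hold 22 copies of UGCAUG, or 3.04 per kb, against 0.302 per kb in KCNQ1OT1 and 0.158 per kb in XIST, and 6 copies lie within 100 nt of the edited position printed above. At 1 ng it held 6, 1 and 4 clusters in RBFOX2 libraries, 1, 0 and 1 in Buffer-only libraries and 1 in the Enzyme-only library. Of the 11 RBFOX2 clusters 8 lay within 50 nt of UGCAUG, where 12.6% of its exon bases lie, beside 2.76% over all 1871 genes and 13.8% in ENSG00000289396. Of the 2 Buffer-only clusters 1 was near UGCAUG too, as was the 1 Enzyme-only cluster. At 100 pg it held 6, 1 and 1 clusters with RBFOX2, 4 of the 8 near UGCAUG, and 0 in each Buffer-only and the Enzyme-only library. Its main locus at 1 ng, chr16:3054007-3054201, had 6 edited reads in 1 RBFOX2 library and 13 in another, at sites of at most 11 and 15 reads. It was not called in the other 5.

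Of 13 loci called at 1 ng in all 3 RBFOX2 and in no Buffer-only library, 8 were also absent from the Enzyme-only library. Near UGCAUG lay 3 of these 8, beside 3.21% of all lncRNA loci at this input. The 3 were in ZNF503-AS2 (chr10:75408561-75408635), AMZ2P1 (chr17:64968066-64968185) and OTUD6B-AS1 (chr8:91068402-91068566). The support was thin, with 1, 2 and 1 edited reads in ZNF503-AS2, 3, 2 and 2 in AMZ2P1 and 2, 3 and 1 in OTUD6B-AS1, at sites of at most 45 reads. OTUD6B-AS1 as a whole held 1, 4 and 3 clusters against 0 in each Buffer-only library at 1 ng, 3 of its 8 near UGCAUG, and 0, 0 and 2 against 1, 2 and 0 at 100 pg. ZNF503-AS2 held 3, 1 and 1 against 2, 1 and 1. AMZ2P1 overlaps a pseudogene and is uncertain for that reason. A library without a call has no coverage given there, so an absent call does not show an absent edit.

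The reverse pattern, all 3 Buffer-only libraries and no RBFOX2 library, was found for 1 locus at 1 ng. Its gene ENSG00000271976 (chr3:53858994-53861576, minus) held 0 clusters in each RBFOX2 library, 1, 1 and 4 in the Buffer-only libraries and 1 in the Enzyme-only library at 1 ng. Its locus chr3:53859040-53859144 had 1, 5 and 7 edited reads in the Buffer-only libraries, at sites of at most 13, 18 and 19 reads. The gene held at 100 pg 0, 1 and 0 clusters with RBFOX2 and 0 in each Buffer-only library.

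Single positions repeated rarely. Of 3928 edited positions in lncRNA clusters at 1 ng, 29 were called in all 3 RBFOX2 libraries, 23 in all 3 Buffer-only libraries and 16 in all 6. Only 2 were in all 3 RBFOX2 and no Buffer-only library, in ENSG00000259049 (chr14:52776863) and ENSG00000277128 (chr14:19156868), and both were also called in the Enzyme-only library, with 1 to 6 edited reads in a library. At 100 pg 12 of 2786 positions were in all 3 RBFOX2 libraries, 12 in all 3 Buffer-only libraries and 10 in all 6, so none of the remaining 2 was free of Buffer-only calls. ENSG00000277991 on chromosome 21, for which near-identical copies were not examined, held 4, 8 and 4 clusters with RBFOX2 and 5, 4 and 7 with Buffer-only at 1 ng. These sum to 16 in each group, and the log2 fold change of −0.79 (adjusted p = 0.548 by edgeR) came from the scaling between libraries, being 0 without it.

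The confident lists, clusters that the authors intersected over replicates, held few lncRNA clusters. At 1 ng 32 of 907 RBFOX2 clusters lay in lncRNA exons, and 21 of the 776 that remained after removal of the Buffer-only list, 2 of them near UGCAUG. Of the 250 Buffer-only clusters 21 did so, none near UGCAUG. As shares of exonic clusters these were 4.27%, 3.04% and 16.4%. Of the 2 clusters near UGCAUG, 1 was in ZNF503-AS2 and 1 in ENSG00000291113 (chr5:177884013-177884117). The latter overlaps a cluster of the Buffer-only list (chr5:177884013-177884057), and its locus was called in all 3 Buffer-only libraries at 1 ng. The numbers at 100 pg were 10 of 267, 4 of 214 and 9 of 102, with 0 near UGCAUG in each. Of the clusters in protein-coding exons that remained after the removal, 114 of 669 (17.0%) at 1 ng were near UGCAUG. The same count at 100 pg was 20 of 178 (11.2%).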

How the data were processed

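Libraries were made with a low-input kit, trimmed with cutadapt and mapped to hg38 by STAR (version 2.4.0 per the submitters' notes), and C-to-U sites were called with SAILOR. The authors kept sites with a score above 0.5 and an edit fraction below 0.8. The deposited site files give counts of edited and of all reads and an edit fraction, and no site had under 5 reads. The authors called clusters per library with FLARE (false discovery rate 0.1, merge distance 15 nt), and the deposited files give a score, counts, an edit fraction and the depth as a signal. The confident lists were intersected over replicates.

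Groups came from the labels. The members, the gene lists and the tests were chosen with earlier results of these data known. Clusters were placed by midpoint in Gencode 44 exons, a later release than the one used by the authors, with Python 3.11.15, pandas 2.3.3 and pysam 0.24.0; figures used matplotlib 3.10.9. A cluster in more than 1 lncRNA gene (82 of 6642) counted for only 1 of them. A gene with a symbol was taken first, and then the gene with the longest exons. Positions in all libraries, the strand of sites and the pseudogene overlap were looked at after the data were seen.

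Values per library were compared with an exact two-sided permutation test (smallest p 0.1), adjusted by Benjamini-Hochberg. Wilson intervals were computed with scipy 1.17.1. Clusters per gene were tested over all genes with at least 1 cluster in 3 of 6 libraries and 6 in all, with edgeR 4.0.16 (R 4.3.3, TMM, quasi-likelihood, adjusted p under 0.05), after a test on simulated data. DESeq2 1.42.0 was an alternative. No fold change is given for genes with 0 clusters in a group. Named genes were the 10 with the most clusters per input, those with a cluster of the cleaned confident lists, list members and HOXA-AS3, and not all are printed. MMP25-AS1, OTUD6B-AS1, ENSG00000271976 and the genes of the printed loci were named after their values were seen.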

Additional observations from a re-analysis of the deposited data

Results flagged for a closer look

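The difference between RBFOX2 and Buffer-only libraries was larger at 1 ng than at 100 pg for both sequence readouts of lncRNA clusters. For edit sites after A or U the difference was 22.5 percentage points at 1 ng and 9.39 at 100 pg, a change of 13.1 points (exact two-sided permutation test of the input labels within each group, p = 0.01, adjusted p = 0.0525 over 7 readouts). For clusters near UGCAUG it was 2.77 and 1.02 points, a change of 1.76 points (exact permutation p = 0.015, adjusted p = 0.0525). Neither passed an adjusted threshold of 0.05. The 1 ng and 100 pg libraries also differed in the number of clusters and in reads per site, with a median of 15.5 reads at a lncRNA site in RBFOX2 libraries at 1 ng and 19.3 at 100 pg, whose part in these differences was not tested.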

How the results depend on the processing

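With FLARE scores of at least 0.99 the difference in lncRNA clusters between RBFOX2 and Buffer-only turned to −19.7 per library at 1 ng and −45.7 at 100 pg, the difference in clusters also called without enzyme at the other input at 100 pg to 5.13 points, and the difference in the sense share at 100 pg to 0.149 points; the cause was not tested. The sense share at 100 pg was 5.64 points higher with RBFOX2 when edit sites took the place of clusters, an alternative chosen after seeing the data, and ranged from −0.485 to 0.113 points when single libraries were left out. With sites of at least 20 reads the edit fraction at 1 ng differed by −0.0385 points. The log2 fold change of XIST at 1 ng was −0.0055 with DESeq2, −0.26 with scaling to the total number of clusters, −0.051 on edit sites and −0.87 with the higher FLARE score, and −0.17 to 0.42 without single libraries. The remaining alternatives left the direction of these differences as reported, namely 149 for values per library against 9 that turned and 102 for single genes against 6, except that ENSG00000277991 at 1 ng went to 0 without scaling, and all 60 recounts of called lncRNA genes gave 0. The default edgeR filter left 0 lncRNA genes at 1 ng and 1 at 100 pg. The replicate numbers did not pair the libraries, with correlations of same-numbered libraries of −0.0049, −0.0053 and −0.013 at 1 ng and 0.026, 0.014 and 0.0033 at 100 pg. With the replicate block the differences per library were those of the unpaired test by construction, with the smallest exact sign-flip p of 3 pairs at 0.25, and 0 lncRNA genes were called. Depth limits what an absent call means, since many sites rested on 1 edited read.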
